A study of Mus musculus with 20 samples.

Results

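The 10 genes described here are the core of the circadian clock and its nearest targets, Arntl, Clock, Npas2, Per1, Per2, Per3, Nr1d1, Nr1d2, Dbp and Ciart, measured in the heart apex of mice with and without cardiac AL amyloidosis. They were taken by gene name from the 25308 genes of the count table, each has a single entry there, and all 10 passed the filter on low counts. RNA was sequenced from 20 mice, 1 library per mouse. The AL group holds 9 DH-lambdaS mice with cardiac amyloid, in which deposition was induced by an intravenous injection of fibrils or soluble variable domain of the same light chain. The LS group holds 4 DH-lambdaS mice that were not induced and had no deposits. The Ctrl group holds 7 DH mice. DH-lambdaS mice carry the human λS light chain of a patient at the mouse kappa locus, and this allele sits on the DH-LMP2A background, whose plasma cells make no Ig heavy chain. The Ctrl mice share that background and lack the human light chain, so that all 3 groups lack normal antibodies. Mice of both sexes were adults (over 3 months, with induction at 3 to 12 months of age) and lived under dark and light cycles, and the hour at which the hearts were taken is not given in the sources used here.

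The circadian clock is a loop of transcription and repression that runs in nearly every cell of the body, the heart muscle cell included. BMAL1, the product of Arntl, pairs with CLOCK or with NPAS2 and turns on genes through E-box elements. Among these genes are Per1, Per2 and Per3, whose products join the CRY proteins and shut BMAL1 and CLOCK off, Nr1d1 and Nr1d2, which encode the REV-ERB receptors that repress Arntl, Dbp, which encodes a factor that binds D-box elements, and Ciart, which encodes a further repressor of BMAL1 and CLOCK. In tissues of mice kept in light and dark, Arntl and Npas2 are known to peak near the opposite time of day from Dbp and the Per genes, while Nr1d1 peaks somewhat before Dbp.

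Sequencing was done in 2 runs, which the study corrected for as its batch. Run 1 held 15 mice (7 AL, 4 LS and 4 Ctrl) with 43993277 to 62668146 counts each, and run 2 held 5 mice (AL8, AL9, Ctrl5, Ctrl6 and Ctrl7) with 7867642 to 11794615 counts. A detection floor of 3 counts was therefore 0.0479 to 0.0682 CPM (counts scaled to a common library size) in run 1 and 0.254 to 0.381 CPM in run 2, and it covers counting error only. LS mice were sequenced only in run 1, so that what sets LS apart was measured in that run alone. Genes of heart muscle cells (Myh6, Tnnt2, Tnni3, Actc1, Ryr2, Mybpc3 and Pln) summed to 37280 to 71180 CPM in all 20 mice. The median was 45710 CPM in AL, 56580 in LS and 56650 in Ctrl. In run 1 the AL mice ran from 37280 to 48670 CPM, below the lowest LS mouse (53130) and the lowest Ctrl mouse (50730). AL8 and AL9 had 67290 and 56480 CPM. The part of this difference in the clock gene levels was not tested. Liver genes (12, Alb and Apoa1 among them) summed to 214 CPM in LS1, 192 in LS3, 278 in Ctrl1, 345 in Ctrl3 and 170 in Ctrl4, against at most 48.4 CPM in the other mice and 9.01 CPM or less in 8 of the 9 AL mice.

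The genes lie on 7 chromosomes (GRCm38, GENCODE annotation), with Arntl at chr7:113207465-113314126, Dbp at chr7:45705088-45710203, Npas2 at chr1:39193731-39363236 and Per2 at chr1:91415982-91459324. Ciart lies at chr3:95878503-95882251, Per3 at chr4:151003652-151044665, Clock at chr5:76209868-76304792, Nr1d2 at chr14:18204054-18239127, Per1 at chr11:69095217-69109960 and Nr1d1 at chr11:98767932-98775333. Nr1d1 and Dbp overlap Thra and Sphk2 on the opposite strand, which the stranded libraries separate. Per3 overlaps Camta1 on its own strand and Clock overlaps the pseudogene Ube2n-ps1 on its own, so that some of their reads could have been assigned to either.

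Promoters of RefSeq (GRCm38.p6) were matched for 9 of the 10 genes, 13 promoters in all, and are shown because the clock proteins act on these genes through short elements near the start site. The 250 bases before each start were searched on both strands for the E-box CACGTG, for the D-box as TTATGTAA or TTACGTAA, and for the ROR element by name, through which REV-ERB and ROR receptors act. Of all 32851 mouse promoters of this length, 6.02% held the E-box, 0.931% the D-box and 0.332% the ROR element. Ciart held 3 E-boxes, beginning 116, 58 and 44 bases before its start, Per1 held 1 E-box 166 bases before its upstream start, and Per3 held 2 D-boxes, 205 and 158 bases before its start. The windows of the other matched genes held none of these letters, and the ROR element was found in 0 of the 9 genes, which says only that the letters are not in this window. The 3 promoters with a match are given 5′ to 3′ with the E-box or D-box in capitals, for Ciart on the minus strand at chr3:95882229-95882478, for Per3 on the minus strand at chr4:151044666-151044915, and for Per1 on the plus strand at chr11:69098699-69098948.
Ciart: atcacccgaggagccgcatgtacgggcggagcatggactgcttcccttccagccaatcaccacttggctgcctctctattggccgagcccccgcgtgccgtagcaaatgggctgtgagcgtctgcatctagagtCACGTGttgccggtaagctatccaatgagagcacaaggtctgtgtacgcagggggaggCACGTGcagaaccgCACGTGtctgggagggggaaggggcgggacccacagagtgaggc
Per3: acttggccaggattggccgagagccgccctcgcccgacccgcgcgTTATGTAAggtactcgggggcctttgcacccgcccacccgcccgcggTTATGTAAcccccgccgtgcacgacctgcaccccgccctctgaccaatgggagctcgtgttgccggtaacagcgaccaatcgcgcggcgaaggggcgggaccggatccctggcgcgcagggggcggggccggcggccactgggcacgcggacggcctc
Per1: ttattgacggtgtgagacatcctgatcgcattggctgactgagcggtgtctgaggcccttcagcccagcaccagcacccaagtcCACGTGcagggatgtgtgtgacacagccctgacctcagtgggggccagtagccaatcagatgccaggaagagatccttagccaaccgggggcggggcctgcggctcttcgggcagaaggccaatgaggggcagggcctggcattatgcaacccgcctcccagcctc

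**Figure D1:**
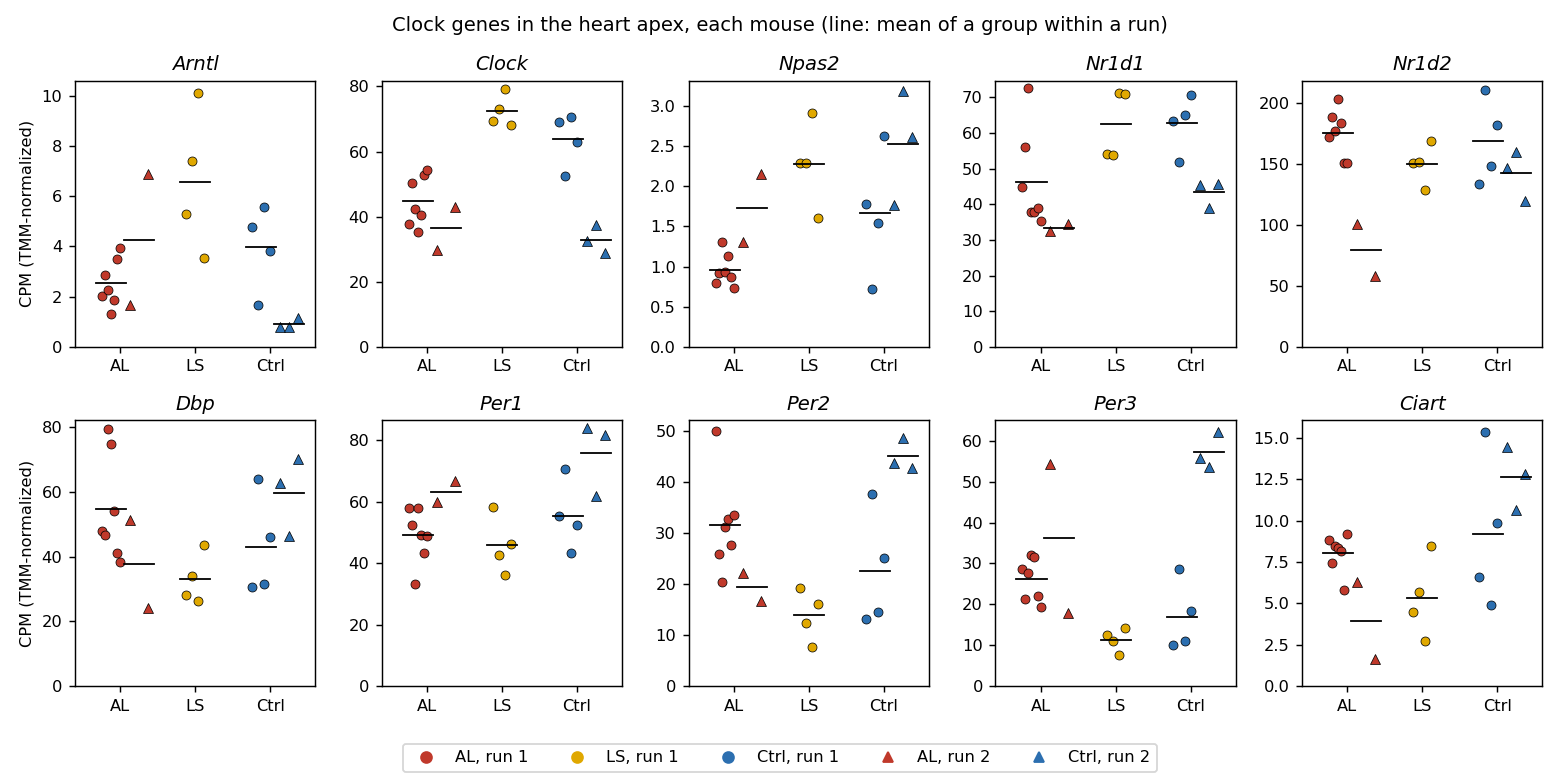
Level of each clock gene in every mouse, in TMM-normalized CPM on the vertical axes, by group on the horizontal axes. Circles are mice of run 1, triangles mice of run 2, and a line marks the mean of a group within a run; the 7 AL mice of run 1 lie below all 4 LS mice for Clock and Npas2 and above them for Per2 and Per3.

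Between AL and LS hearts, 4 of the 10 clock genes differed, 2 lower and 2 higher in AL. Clock and Npas2, the partners of BMAL1, were lower in hearts with amyloid (0.652 and 0.429 of the LS level), and the repressors Per2 and Per3 were higher (2.05-fold and 2.11-fold). All 4 LS mice lay outside the range of the 7 AL mice of the same run for each of these 4 genes. This separation is in the same values as the test and is no separate evidence, and its share over all genes was not counted. A gene was called at a false discovery rate (FDR, the Benjamini-Hochberg adjusted p of edgeR's quasi-likelihood test over 14477 genes) under 0.05 with a log2 fold change of at least 0.58 in size, and 8.9% of all genes tested were called between AL and LS. After the study's own kind of run correction (ComBat-seq in place of a run term), Npas2 alone was called (-1.27, FDR 0.00824), and Clock (-0.67), Per2 (0.97) and Per3 (1.01) had FDRs of 0.0764, 0.0842 and 0.0523. Bulk RNA cannot tell fewer cells that express a gene from less RNA per cell.

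Clock, a partner of BMAL1, was measured at 69.3, 73.0, 79.2 and 68.3 CPM in LS1 to LS4. In AL mice of run 1 its level ran from 35.4 to 54.4 CPM with a median of 42.2, and in AL8 and AL9 it was 29.9 and 43.03 CPM. No AL mouse reached the lowest LS mouse. Neither did the 3 Ctrl mice of run 2 (28.9 to 37.4 CPM), so for AL8 and AL9 the run cannot be told apart from the group. The log2 fold change was -0.62 (SE 0.145, FDR 0.00554 in edgeR), just past the fold threshold, and without AL1, AL4 or LS3 it was -0.57 in each case, short of that threshold, at FDRs of 0.0108, 0.00946 and 0.0226.

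Npas2, which can stand in for CLOCK beside BMAL1, was measured at 2.29, 2.29, 2.91 and 1.60 CPM in LS1 to LS4. In AL mice of run 1 it ran from 0.730 to 1.30 CPM with a median of 0.919, below every LS mouse, on 33 to 77 counts per library. AL8 lay at 1.30 and AL9 at 2.15 CPM, on 11 and 25 counts, so that AL9 alone of the AL mice fell within the LS range. The log2 fold change was -1.22 (SE 0.259, FDR 0.00299), and the call held when any of the 20 mice was left out.

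Per2, a partner of the CRY proteins in repression, was measured at 19.3, 12.4, 7.64 and 16.1 CPM in LS mice. In AL mice of run 1 it ran from 20.4 to 49.9 CPM with a median of 31.2, above every LS mouse, while AL8 and AL9 had 22.2 and 16.7 CPM. The difference in log2 level was 1.03 (SE 0.347, FDR 0.0379). It was past the FDR threshold by little, and leaving out any of AL1, AL4, AL5, AL7, LS2, LS3 or LS4 gave FDRs of 0.0554 to 0.129.

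Per3, its paralogue, was measured at 12.5, 10.9, 7.64 and 14.2 CPM in LS mice. AL mice of run 1 ran from 19.3 to 32.1 CPM with a median of 27.6, above every LS mouse. AL8 and AL9, of run 2, had 54.3 and 17.99 CPM, also above all LS mice. The 3 Ctrl mice of run 2 had 53.6 to 62.3 CPM, so for AL8 and AL9 the run cannot be told apart from the group. The log2 fold change was 1.08 (SE 0.325, FDR 0.0230), and without LS2 or LS3 it was 1.05 and 0.93 at FDRs of 0.0635 and 0.0825. LS3, with the highest Clock, Arntl and Npas2 of all LS mice and the lowest Per1, Per2, Per3, Dbp, Ciart and Nr1d2, had the most weight in this comparison, and without it Npas2 alone was called.

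Arntl, the gene of BMAL1 itself, was not called between AL and LS, at a log2 fold change of -1.07 (SE 0.492, FDR 0.121). LS mice had 5.29, 7.41, 10.1 and 3.53 CPM, and AL mice of run 1 had 1.29 to 3.94 CPM with a median of 2.25, 6 of the 7 below all LS mice. In run 2, AL8 had 1.66 CPM on 14 counts and AL9 had 6.89 CPM on 80 counts, so that AL9 lay within the LS range and AL8 below it. Without AL9 the log2 fold change was -1.28 (FDR 0.0108), past both thresholds.

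Of the other members, Dbp, the D-box factor, had 28.1, 34.0, 26.1 and 43.7 CPM in LS mice and 38.2 to 79.3 CPM in AL mice of run 1 (median 47.9), with a log2 fold change of 0.62 (SE 0.275, FDR 0.107). Nr1d1, the gene of REV-ERBα, had 54.0, 53.9, 71.2 and 70.9 CPM in LS mice and 35.4 to 72.5 CPM in AL mice of run 1 (median 39.0), with -0.43 (SE 0.157, FDR 0.0549). The ranges of the 2 groups overlapped for both genes, and neither was called. Ciart (0.45, SE 0.355), Nr1d2 (0.13, SE 0.176) and Per1 (0.09, SE 0.151) had FDRs of 0.374 to 0.707.

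With run 1 taken alone (7 AL against 4 LS mice), 6 of the 10 genes were called against 11.5% of all 14288 genes tested there. Arntl was lower in AL by 1.37 on the log2 scale (log2 fold change -1.37, SE 0.343, FDR 0.00833) and Dbp higher by 0.74 (SE 0.248, FDR 0.0342), beside Clock at -0.68, Npas2 at -1.24, Per2 at 1.20 and Per3 at 1.22. The direction of each of the 6 was the one seen over both runs. That fit holds the same 7 AL and 4 LS mice, so the shared direction is no separate evidence. The liver genes, high in LS1 and LS3, moved with this comparison, since 10 of 12 were called lower in AL. With their mean level as a covariate over all 20 mice, Npas2 alone was called (-1.10, FDR 0.0245), and Clock came to -0.39 (FDR 0.0532), Per2 to 0.50 (FDR 0.361) and Per3 to 0.54 (FDR 0.246). The liver genes summed to 8.58 CPM in LS2 and 23.5 CPM in LS4.

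**Figure D2:**
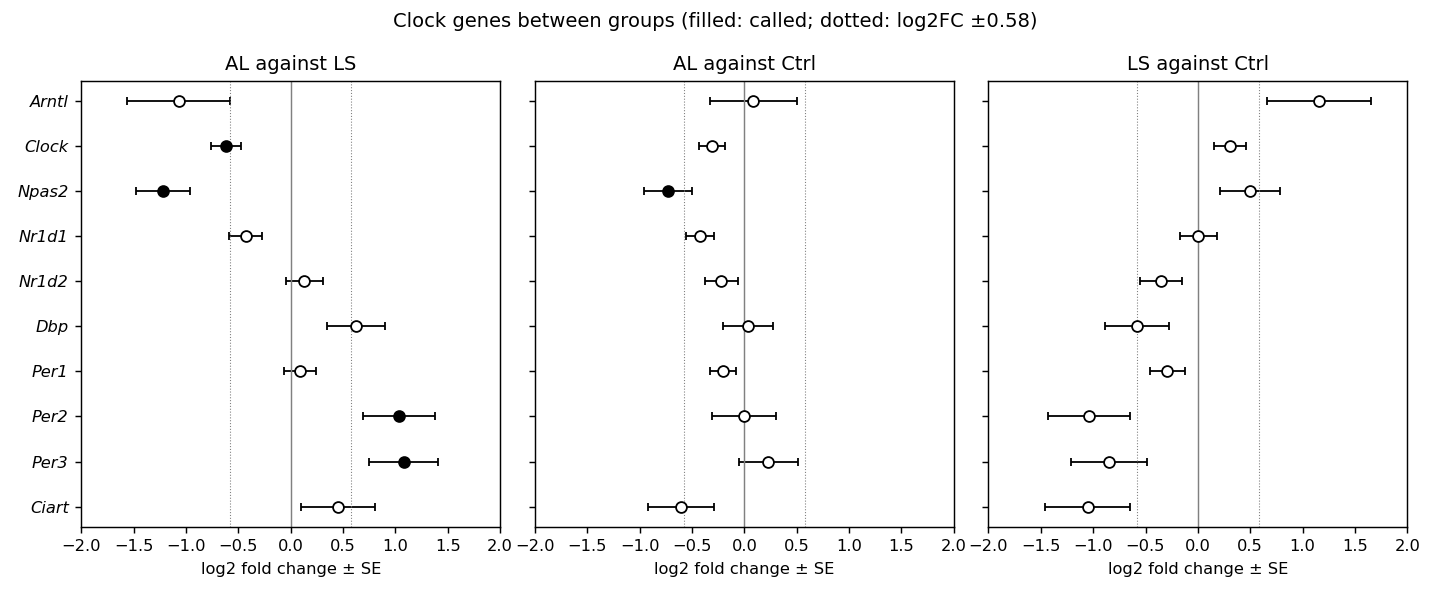
Log2 fold change of each clock gene (points) with its standard error (bars) for AL against LS, AL against Ctrl and LS against Ctrl, over 20 mice with sequencing run in the model. Filled points passed both thresholds, an FDR under 0.05 and a log2 fold change beyond the dotted lines; 4 genes did so in AL against LS, 1 in AL against Ctrl and 0 in LS against Ctrl.

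Between AL and Ctrl hearts, Npas2 was the 1 clock gene of 10 that was called, lower in AL at 0.604 of the Ctrl level. In this comparison 7.81% of all genes were called, so the share of clock genes called was close to the background. Ctrl mice had 1.78, 0.723, 1.55 and 2.62 CPM of Npas2 in run 1 and 1.77, 3.19 and 2.61 CPM in run 2. The AL range of run 1 (0.730 to 1.30 CPM) lay below 3 of these 4 Ctrl mice, and Ctrl2 lay below every AL mouse. The log2 fold change was -0.73 (SE 0.228, FDR 0.0248), and without Ctrl4 it was -0.51 (FDR 0.106). All 12 liver genes were called lower in AL than in Ctrl (median log2 fold change -4.47). With their mean level as a covariate, Npas2 came to -0.58 (FDR 0.216) and Ciart was the 1 gene called (-1.38, FDR 0.00669).

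Nr1d1 passed the FDR threshold at a smaller fold than the one required (log2 fold change -0.42, SE 0.135, FDR 0.0274). Ctrl mice of run 1 had 63.4, 52.0, 65.0 and 70.8 CPM, and 5 of the 7 AL mice of that run lay below all of them. In run 2 the Ctrl mice had 45.4, 39.0 and 45.7 CPM and the AL mice 32.4 and 34.4, so that the groups did not overlap there. With so few mice this can arise without a difference between groups, and its share over all genes was not counted. Fitted in each run alone, the log2 fold change was -0.44 (SE 0.180, FDR 0.0850) in run 1 and -0.32 (SE 0.155, FDR 0.387) in run 2.

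Clock had a log2 fold change of -0.31 (SE 0.123, FDR 0.0688) and Ciart of -0.60 (SE 0.316, FDR 0.168). Per1 (-0.20), Nr1d2 (-0.22), Per3 (0.23), Arntl (0.09), Dbp (0.04) and Per2 (-0.00) had FDRs of 0.252 to 0.995. Arntl and Dbp had standard errors of 0.418 and 0.239. The median over the 10 genes was -0.21, against 0.01 over all genes tested.

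Between LS and Ctrl, 0 of the 10 clock genes were called by edgeR, and 0 by DESeq2, where 0.0207% of all genes (3 of 14477) were called by edgeR. At an unadjusted p under 0.05 were 4 of the 10, Arntl at a log2 fold change of 1.16 (SE 0.501), Per2 at -1.04 (SE 0.392), Per3 at -0.85 (SE 0.361) and Ciart at -1.05 (SE 0.407), with FDRs of 0.784 to 0.817. Over all genes tested, 860 of 14477 had an unadjusted p under 0.05. Clock genes moved together among mice, so their p-values are not independent. In run 1, where both groups were sequenced, the ranges of LS and Ctrl overlapped for all 10 genes. Arntl had 4.79, 1.67, 5.58 and 3.80 CPM in Ctrl1 to Ctrl4, and 2 of the 4 LS mice lay above them. AL against LS and LS against Ctrl share the LS mice, and AL against Ctrl and LS against Ctrl share the Ctrl mice.

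The Ctrl mice differed among themselves by the run they were sequenced in. In run 2 the 3 Ctrl mice had 0.787, 0.797 and 1.15 CPM of Arntl on 8, 8 and 15 counts, the 3 lowest values of all 20 mice. Their Per3 was 55.8, 53.6 and 62.3 CPM, where the Ctrl mice of run 1 had 9.98, 28.7, 10.9 and 18.3, and their Per2 was 43.7, 48.5 and 42.7 CPM, where those of run 1 had 13.1, 37.6, 14.4 and 25.2. Clock was 32.6, 37.4 and 28.9 CPM in run 2 and 69.1, 52.6, 70.7 and 62.8 CPM in run 1. Ctrl2 stood nearest to the Ctrl mice of run 2 among those of run 1 for all 4 genes.

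Over AL and Ctrl together, run 2 differed from run 1 in 4 of the 10 clock genes, where 19.4% of all genes were called for the run. Clock was lower in run 2 (log2 fold change -0.63, SE 0.137, FDR 0.00100) and so was Nr1d2 (-0.64, SE 0.170, FDR 0.00482). Per3 was higher (1.19, SE 0.294, FDR 0.00277) and so was Npas2 (0.72, SE 0.249, FDR 0.0247). The Npas2 call was lost without AL9 (0.57, FDR 0.116) or without Ctrl6 (0.65, FDR 0.0601). Without AL9, Nr1d2 came to -0.40 (FDR 0.0273), short of the fold threshold, and Arntl to -1.58 (FDR 0.00660), past both thresholds. Without Ctrl7, Clock came to -0.55. Taken alone, each of the 4 was called in 1 of the 2 groups only, with the same sign in both. This is not a difference between the groups. The edgeR test of whether the run difference differed between AL and Ctrl gave these 4 genes FDRs of 0.0872 to 0.839. In Ctrl mice alone, Clock (-0.93) and Per3 (1.77) were called with Arntl and Per2, but Nr1d2 (-0.22, FDR 0.348) and Npas2 (0.62, FDR 0.296) were not. In AL mice alone, Nr1d2 (-1.13) and Npas2 (0.90) were called with Ciart, but Clock (-0.27, FDR 0.300) and Per3 (0.47, FDR 0.281) were not. Library size moved with the run, and its part in these values was not tested. Of the 12 liver genes, 11 were called lower in run 2 (median log2 fold change -6.46). With their mean level as a covariate, Clock came to -0.30 (FDR 0.146), Per3 to 0.48 (FDR 0.269) and Npas2 to 0.89 (FDR 0.0603), while Nr1d2 (-1.09, FDR 0.000157) and Ciart (-1.14, FDR 0.0213) were called.

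**Figure D3:**
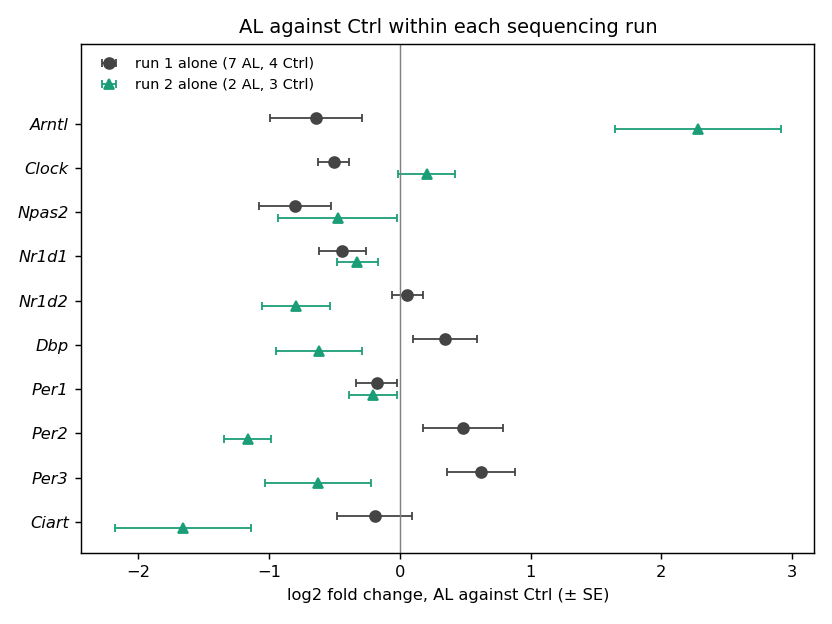
Log2 fold change of AL against Ctrl (horizontal axis, points, with standard error as bars) for each clock gene, fitted in run 1 alone (circles, 7 AL and 4 Ctrl mice) and in run 2 alone (triangles, 2 AL and 3 Ctrl mice). Arntl lies at -0.64 in run 1 and at 2.28 in run 2, and Per2 at 0.48 and -1.16.

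Fitted in each run alone, the log2 fold change of AL against Ctrl had opposite signs in the 2 runs for 6 of the 10 clock genes. The share of all genes with opposite signs was not counted, and signs can differ where a gene has no group difference. This count is therefore no result about clock genes. Arntl stood at -0.64 (SE 0.349) in run 1 and at 2.28 (SE 0.634) in run 2. Per2 stood at 0.48 (SE 0.304) and -1.16 (SE 0.181), Per3 at 0.62 and -0.63, Dbp at 0.34 and -0.62, Nr1d2 at 0.06 and -0.79, and Clock at -0.51 and 0.21. Ciart (-0.19 and -1.66), Npas2 (-0.80 and -0.47), Nr1d1 and Per1 (-0.18 and -0.21) kept their sign. Within run 1 alone Npas2 was the 1 gene of 10 called (FDR 0.0433), at a background of 7.82%, and Clock had an FDR of 0.00838 at a fold short of the threshold. Within run 2 alone (2 AL against 3 Ctrl mice) 0 of the 10 were called by edgeR, where 0.128% of 12496 genes (16) were, so that this count says nothing about the clock genes.

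The test of the difference itself, with group and run joined, gave Arntl 2.88 (SE 0.734, FDR 0.0566) on the log2 scale, for the AL minus Ctrl difference in run 2 less that in run 1. Nr1d2 followed at -0.90 (SE 0.260, FDR 0.0872) and Per2 at -1.70 (SE 0.524, FDR 0.107). By edgeR 0 of the 10 genes were called, against 1.41% of all genes. At an unadjusted p under 0.05 by edgeR were 7 of the 10, against 2483 of all 14477 genes. DESeq2 called 512 genes in all, among them 3 of the 10, Arntl (2.90, FDR 0.00534), Per2 (-1.68, FDR 0.0240) and Nr1d2 (-0.88, FDR 0.0270). The AL side of run 2 rests on 2 mice that differed from each other. AL8 had 1.66 CPM of Arntl, 54.3 of Per3, 51.4 of Dbp and 6.28 of Ciart, and AL9 had 6.89, 17.99, 24.3 and 1.64 CPM. Leaving out either one leaves 1 AL mouse in run 2, which is then assumed to vary like the mice of the other sets. Only the size of the difference is therefore given for these 2 fits, with Arntl at 3.54 without AL8 and at 1.49 without AL9. Without AL7, Arntl alone was called (3.01, FDR 0.0487), and without Ctrl2, Arntl and Per2 were (3.13 and -2.06, FDRs 0.0384 and 0.0440).

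Ratios between clock genes within a mouse cancel the scaling by library size, but a run difference of single genes stays in them. For run 2 against run 1 the log2 fold change was 1.19 for Per3 and -0.50 for Nr1d1. Arntl rested on 8 to 15 counts in Ctrl5, Ctrl6, Ctrl7 and AL8, so its ratios there carry more counting error. Ratios compared across the runs can therefore hold the run as well as the group. The log2 ratio of Arntl to Dbp was lowest in Ctrl5 (-6.31), Ctrl7 (-5.93), Ctrl6 (-5.87) and AL4 (-5.85), and highest in LS3 (-1.37), AL9 (-1.82), LS2 (-2.20), LS1 (-2.41), Ctrl3 (-2.49) and Ctrl1 (-2.67). Over AL mice of run 1 it ran from -5.85 to -3.28, over LS mice from -3.63 to -1.37, and over Ctrl mice of run 1 from -5.26 to -2.49. The AL and LS ranges of run 1 overlapped, since LS4 (-3.63) lay below AL6 (-3.55) and AL7 (-3.28). The Ctrl group spanned 3.82 log2 units, the AL group 4.04 and the LS group 2.26. The log2 ratio of Nr1d1 to Per3 was 2.11 to 3.22 in LS mice, 0.23 to 1.39 in AL mice of run 1, 0.86 to 2.67 in Ctrl mice of run 1 and -0.46 to -0.30 in those of run 2. Within run 1, AL and LS did not overlap in this ratio, and the 3 Ctrl mice of run 2 lay within 0.158 units of each other. AL9 combined an Arntl to Dbp ratio within the LS range with an Nr1d1 to Per3 ratio (0.94) within the AL range.

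**Figure D4:**
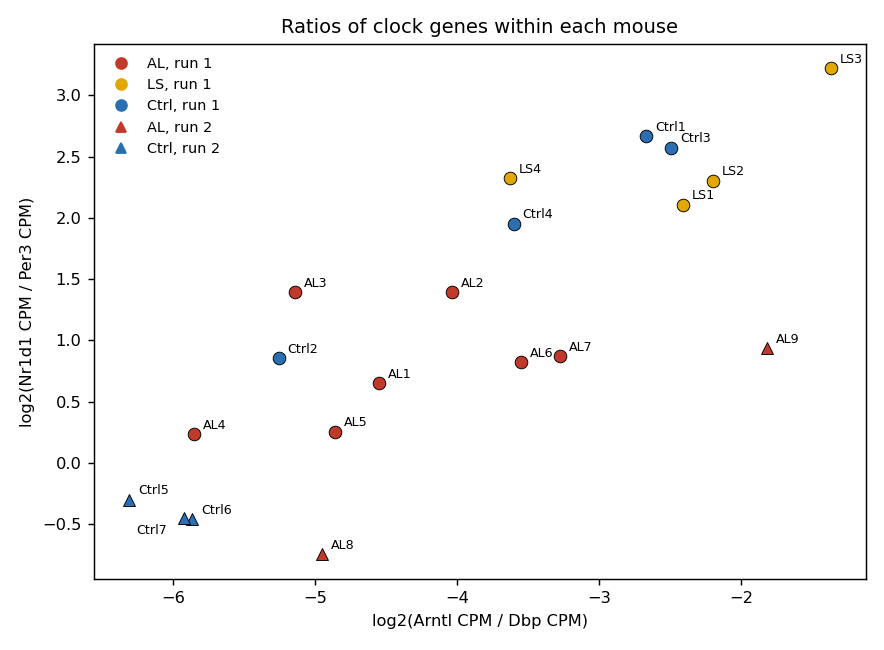
Each mouse by the log2 ratio of Arntl to Dbp CPM (horizontal axis) and of Nr1d1 to Per3 CPM (vertical axis), coloured by group, with circles for run 1 and triangles for run 2. Ctrl5, Ctrl6 and Ctrl7 lie at the lower left, and LS1, LS2 and LS3 with Ctrl1 and Ctrl3 at the upper right.

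Clock genes also moved together among mice of the same group and run. After each gene's log2 CPM was centred on the mean of its group within its run, 21 of the 45 pairs correlated at an adjusted p under 0.05 over 20 mice (two-sided permutation test on Pearson's r, 100000 resamples within group and run, Benjamini-Hochberg over the 45 pairs), 11 of them positive and 10 negative. By Spearman's rho 10 pairs passed. An r of at least 0.5 in size was found in 53.3% of the 45 pairs and, on the same scale, in 14% of all pairs of the 12221 genes that averaged 1 CPM or more, a description in which pairs are not independent. Arntl and Per3 had an r of -0.912 and a rho of -0.905 (permutation p = 5e-05 for both, adjusted p = 0.00075 and 0.00112). Without the 2 mice farthest from the median of Arntl (AL9 and Ctrl2) r was -0.868, and over the 15 mice of run 1 it was -0.912. Values were not centred again after mice were left out in this way. AL8 and AL9 are the only AL mice of run 2, so AL8 mirrors AL9 after centring. Leaving out AL9 therefore does not remove its deviation, here and for the other pairs. Mice with more Arntl than their group had less Per3.

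Clock and Per3 had an r of -0.845 and a rho of -0.856 (permutation p = 1e-05 for both, the smallest these resamples can give, adjusted p = 0.00045), with -0.860 without AL4 and AL7 and -0.827 in run 1. Arntl and Clock had an r of 0.821 and a rho of 0.818 (permutation p = 0.00021 and 0.00026, adjusted p = 0.00189 and 0.00234), with 0.770 without AL9 and Ctrl2 and 0.895 in run 1. The pair of activators thus moved together, and both moved against Per3. Dbp and Per3 had an r of 0.856 and a rho of 0.841 (permutation p = 0.00018 and 0.00076, adjusted p = 0.00189 and 0.0057), with 0.805 without AL9 and Ctrl2 and 0.831 in run 1.

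Between Arntl, Clock or Npas2 on the 1 side and Per1, Per2, Per3, Nr1d2, Dbp or Ciart on the other, all 18 pairs had a negative r, from -0.912 to -0.324, and 10 of the 18 passed. Among Per1, Per2, Per3, Nr1d2, Dbp and Ciart, all 15 pairs had a positive r, from 0.141 to 0.863, and 10 of the 15 passed. Ciart and Per3 had the highest r of the 45 pairs (0.863, rho 0.746, adjusted permutation p = 0.0106 and 0.0576), with 0.794 without AL9 and Ctrl2. Nr1d1 stood apart, with 9 pairs between -0.485 and 0.376 of which 0 passed and an r of -0.086 with its paralogue Nr1d2. Npas2 also had 0 pairs that passed, on the lowest counts of the 10 genes in most libraries. The number of pairs that passed was 11 without Ctrl2 and 12 without LS3, and 16 to 21 without any other single mouse.

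**Figure D5:**
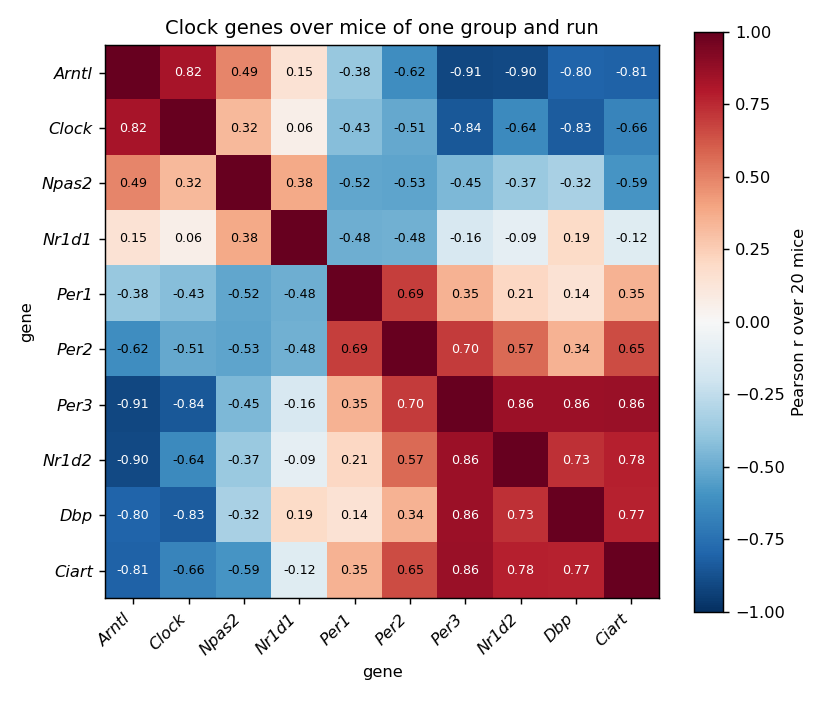
Pearson r of log2 CPM, centred on group and run, between each pair of clock genes over 20 mice; both axes list the genes, and colour and number give r. Arntl, Clock and Npas2 have negative r with Per1, Per2, Per3, Nr1d2, Dbp and Ciart, and Nr1d1 has r between -0.485 and 0.376 with every other gene.

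The spread among mice of the same group and run was larger for most of these genes than for other genes of like level. The residual SD of log2 CPM was 0.683 for Arntl, 0.585 for Ciart, 0.499 for Per3, 0.488 for Per2 and 0.437 for Dbp, where the median over all genes tested was 0.228. Of the genes within 0.5 log2 units of its mean level, 97.3% had a smaller SD than Per3, 97.2% than Per2, 96.3% than Dbp, 94.1% than Ciart and 90.7% than Arntl. Nr1d1 (0.279), Per1 (0.272), Nr1d2 (0.246) and Clock (0.218) lay above 79.6% to 88.5% of genes of like level, and Npas2 (0.455) above 55.4%. Between the highest and the lowest mouse, levels differed 12.9-fold for Arntl, 9.41-fold for Ciart, 8.15-fold for Per3 and 6.53-fold for Per2, and 2.24-fold for Nr1d1.

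The 16 other clock genes of a list that covers the CRY repressors, the ROR receptors, the D-box factors and the kinases and ligases that act on PER and CRY were called about as often as all genes. Against Ctrl, 1 of the 16 was called (7.81% of all genes), Fbxl21 (a ubiquitin ligase subunit for CRY), lower in AL (log2 fold change -0.88, SE 0.307, FDR 0.0411) at levels of 0.118 to 0.896 CPM that lie near the detection floor of run 2. Against LS, 1 was called (8.9% of all genes), Cry1, a repressor that binds PER, higher in AL (0.64, SE 0.203, FDR 0.0282). At an unadjusted p under 0.05 by edgeR were 7 of the 16, against 5334 of all 14477 genes. Cry1 was at 6.70 ± 1.22 CPM in LS (SD, n = 4) and at 11.3 ± 2.16 CPM in AL mice of run 1 (SD, n = 7). Between LS and Ctrl 0 were called by edgeR, with 4 at an unadjusted p under 0.05, against 860 of all 14477 genes. For the run, 4 were called (19.4% of all genes), of which Csnk1e (0.59), Fbxl21 (1.01) and Rorb (1.05) were higher in run 2 and Rora (-0.58) lower. The median log2 fold change of the list was -0.04 in AL against Ctrl and 0.00 in AL against LS, where all genes had 0.01 in both, and 7 and 8 of its 16 genes had a positive value.

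Of 12 genes known as clock outputs in the heart or elsewhere, 0 were called by edgeR in AL against Ctrl (7.81% of all genes). There 4 of the 12 had an unadjusted p under 0.05, as did 5624 of all 14477 genes. In AL against LS 1 was called (8.9% of all genes), Tspan4, a tetraspanin, higher in AL (0.67, SE 0.160, FDR 0.00613). Between the runs 3 were called (19.4% of all genes), all lower in run 2, the mitochondrial protein gene Coq10b (-0.91), the transcription factor gene Klf10 (-1.20) and Pdk4 (-1.76), the kinase that holds pyruvate back from oxidation. Of 8 genes induced by glucocorticoids, hormones whose level follows the time of day, 7 were called lower in run 2 (19.4% of all genes were called in either direction), Klf9 (-0.84, FDR 9.64e-06), Tsc22d3 (-1.10, FDR 0.000141) and Fkbp5 (-1.29, FDR 0.00824) among them. The summed level of these 8 genes ran from 319 to 929 CPM in AL, from 684 to 831 in LS and from 399 to 1065 in Ctrl mice. Their part in the clock gene levels was not tested. In AL against Ctrl 1 of the 8, Zbtb16, was called lower (-0.94, FDR 0.000535), and in AL against LS 1, Mt2, higher (1.78, FDR 0.0230), where 7.81% and 8.9% of all genes were called.

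Immediate-early genes, which respond within minutes to stress and handling, signals to which Per1 is known to respond in some cells, were called for 1 of 8 genes in AL against Ctrl (Atf3, 0.92, FDR 0.0399), for 1 of 8 in AL against LS (Fos, -2.94, FDR 0.0338) and for 3 of 8 between the runs (Fosb, 1.95, Jun, 0.72, and Nr4a1, 1.50, all higher in run 2), where 7.81%, 8.9% and 19.4% of all genes were called. In AL against LS all 8 had a negative log2 fold change (median -1.07) and 6 an unadjusted p under 0.05 (5334 of all 14477 genes). The 8 genes summed to 127, 82.1, 72.9 and 513 CPM in LS1 to LS4, so that LS4 stood far above the other LS mice. The median sum was 89.0 CPM in AL and 104 CPM in LS, and AL8 and AL9 had 189 and 264 CPM. Per1 itself was not called in any of these comparisons, and it ran from 33.3 to 84.0 CPM over all mice. In the Ctrl mice of run 2 it was 84.0, 61.9 and 81.7 CPM, in AL8 and AL9 59.9 and 66.8 CPM, and its log2 fold change for the run was 0.41 (SE 0.136, FDR 0.0184), short of the fold threshold.

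Among 12211 genes of at least 1 CPM, those whose pattern over the 20 mice was most like that of Arntl, on the same centred scale, were Wfs1 (r = 0.889), Bysl (0.885), Itga9 (0.878), Ubtd1 (0.851) and Ctps (0.849). The most opposite were Hlf (-0.908), Eif1b (-0.897), Secisbp2 (-0.891), Tef (-0.865) and Cracr2a (-0.863). Hlf and Tef encode the D-box factors related to DBP, so that 2 of the 5 genes most opposite to Arntl were of the clock list. Most like Dbp were Kcnn2 (0.885), Stum (0.883), C2cd5 (0.866), Syt7 (0.855) and Cry2 (0.849), a CRY repressor, and most opposite were Nedd9 (-0.909), Gnao1 (-0.874), P2ry2 (-0.856), Zbtb38 (-0.853) and Gas2l3 (-0.843). Hlf (0.826) and Tef (0.803) ranked 11 and 19 for likeness to Dbp. These r values are descriptions over 20 mice that share libraries and scaling, chosen as extremes among all genes.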

How the data were processed

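Heart apices of 20 mice were profiled by stranded sequencing of polyadenylated RNA. The authors aligned reads to GRCm38 with STAR and estimated gene counts with Salmon within the nf-core workflow, and the deposited values are these estimated counts, without normalization (14.2% not whole numbers). All sample columns were used, each matched to a mouse by its library name.

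The estimates were first rounded to whole numbers. Low genes were removed with filterByExpr (minimum count 10, by the 3 groups), scaled by TMM and tested with glmQLFit and glmQLFTest of edgeR 4.0.16 (R 4.3.3), on group plus run, and p-values were adjusted over 14477 genes. Calls needed FDR below 0.05 and a log2FC of 0.58 or more in size. All p-values are two-sided. SEs come from the F statistic. Correlations used log2 CPM with a prior count of 2, in Python 3.11.15 with NumPy 2.4.6. The fits were tested on simulated data. Alternatives were RLE scaling, other filters, DESeq2 1.42.0, ComBat-seq (sva 3.50.0), single runs, covariates, pairs of groups and each mouse left out. Those for the difference between runs, and each mouse left out of the correlations, were added after seeing the data. Same-numbered mice of different groups deviated together little (15 pairs, r of -0.154 to 0.231), so the numbers were not used as pairs. Their median r was 0.0485, with 3 pairs over 0.1, against a median of -0.00724 for pairs of different numbers.

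The clock genes and the lists were chosen with earlier results of these data known. Named genes are the 10 clock genes, called genes of the lists, and the 5 genes of highest and of lowest r with Arntl and with Dbp. Promoter sequences come from RefSeq (GRCm38.p6) and positions from GENCODE M21.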

Additional observations from a re-analysis of the deposited data

Results flagged for a closer look

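In 5 of the 30 sets tested (10 clock genes in 3 groups) the highest or lowest mouse stood far from the nearest of the others for the range of its group, where chance flags about 1 in 20. All 5 lay in the AL group, and both the AL and the Ctrl group mix the 2 runs. Clock genes moved together among mice, so the 30 sets are not independent. AL9 had the highest Arntl (6.89 CPM, next 3.94) and the highest Npas2 (2.15 CPM, next 1.30), and the lowest Ciart (1.64 CPM, next 5.81). AL8, the other AL mouse of run 2, had the highest Per3 (54.3 CPM, next 32.1). AL1, of run 1, had the highest Per2 (49.9 CPM, next 33.4).

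Bhlhe41, the gene of DEC2, a repressor that competes for E-boxes, was the 1 gene of the other clock genes for which the AL minus Ctrl difference differed between the runs by edgeR (log2 difference of differences -1.09, SE 0.260, FDR 0.0449). It was at 20.1 ± 3.60 CPM in AL (SD, n = 7) and 15.1 ± 1.41 in Ctrl (SD, n = 4) in run 1, and at 13.99 ± 2.51 in AL (SD, n = 2) and 22.4 ± 3.116 in Ctrl (SD, n = 3) in run 2. The groups did not overlap in run 2, where so few mice can separate without a difference between groups.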

How the results depend on the processing

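The comparisons of AL with Ctrl rest on 2 AL mice in run 2 and those with LS on run 1, and at the depth of run 2 Arntl and Npas2 had as few as 8 and 11 counts. Of the values of single clock genes under other settings than a mouse left out, 418 kept their direction and their side of the threshold, 31 changed sign, 15 came past the threshold and 21 fell short of it. The cause of these changes was not tested.

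Between AL and Ctrl 0 clock genes were called after ComBat-seq and 0 in run 2 alone, where 758 and 16 of all genes were called. Between AL and LS 1 was called after ComBat-seq and 1 with liver genes as a covariate, against 637 and 1152 of all genes. Between the runs 2 were called with Xist and 2 with liver genes as a covariate, against 2865 and 2691. For the difference between runs DESeq2 called 3, against 512. With each mouse left out, the number of clock genes called ran from 0 to 1 in AL against Ctrl and from 3 to 4 for the run. In AL against LS it ran from 1 to 6, with 6 without AL9 and 2 without AL1, AL4 or LS2. It stayed at 0 for LS against Ctrl. For the difference between runs it ran from 0 to 2, leaving aside the fits without AL8 or AL9. Pairs that correlated ran from 11 to 21.

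The replicate number was also used as a block, a pairing the data gave little sign of. Then 6 clock genes were called in AL against LS, 0 in LS against Ctrl and 3 between the runs. Of all genes, 1228, 3 and 2158 were called there. In AL against Ctrl 1 clock gene was called, Clock (-0.63, FDR 0.0114), in place of Npas2 (FDR 0.178), against 851 of all genes. Under this block the log2 fold change in AL against Ctrl turned to -0.92 for Arntl, 0.48 for Per2 and 0.15 for Nr1d2, that of LS against Ctrl to -0.016 for Nr1d1, and that of the run to 0.72 for Ciart.

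In AL against Ctrl, other settings turned Arntl to -0.64 (run 1 alone) and -0.39 (LS and Ctrl merged), Clock to 0.21 (run 2 alone), Per2 to 0.0092 (10 counts in every mouse), 0.0033 (RLE), 0.48 (run 1 alone) and 0.41 (merged), Per3 to -0.32 (liver), -0.26 (no run term) and -0.63 (run 2 alone), Nr1d2 to 0.059 (run 1 alone) and Dbp to -0.53 (liver) and -0.62 (run 2 alone). In AL against LS, the liver covariate turned Nr1d2 to -0.20 and Ciart to -0.21. In LS against Ctrl, Nr1d1 turned to -0.0048 (10 counts in every mouse), -0.014 (run 1 alone) and -0.016 (these 2 groups alone). For the run, Arntl turned to 0.66 (liver) and 0.81 (AL mice alone), Per2 to -0.24 (Xist), -0.43 (liver) and -0.69 (AL mice alone), Dbp to -0.67 (liver) and -0.52 (AL mice alone) and Ciart to 0.48 (Ctrl mice alone).

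With each mouse left out, signs turned for Arntl (-0.41 to 0.33), Per2 (-0.21 to 0.22) and Dbp (-0.10 to 0.24) in AL against Ctrl, Per1 (-0.011 to 0.21) in AL against LS, Nr1d1 (-0.063 to 0.074) in LS against Ctrl, Dbp (-0.10 to 0.32) and Ciart (-0.32 to 0.25) for the run, and Npas2 (-0.14 to 0.58), Per1 (-0.22 to 0.012) and Nr1d1 (-0.0059 to 0.21) for the difference between runs.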
